A study of Mus musculus with 60 samples.

Results

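The bacteria of the mouth were set against those of stool in mice at day 28 of a study of gut and lung bacteria under nanoplastic exposure. The comparison holds 12 oral swab libraries and 12 stool libraries, 24 of the 60 libraries in all, chosen by their labels for sample type and day and by no measured value. All animals were male. At each site 6 libraries came from exposed mice, which took PET nanoparticles (PET is polyethylene terephthalate, a packaging plastic) by daily oral gavage over 28 days. The daily dose was 0.5 mg, in a volume of 0.1 ml. The other 6 libraries of a site came from control mice that were not exposed. The labels give neither strain nor age, nor what the control mice received in place of the particles. DNA of both sites was taken with the same kit for soil-like material, and amplicons of the V3 to V4 region of the 16S rRNA gene were sequenced. The design text names 12 mice, but no label ties a swab to a stool, so mouth and stool of a mouse could not be paired and the p-values measure the spread between libraries. Library numbers below only name libraries.

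The mouth and the large bowel are the entrance and the exit of the digestive tract. The mouth is open to air, saliva flows through it, and bacteria must hold on to teeth, tongue or cheek to stay. In laboratory rodents it is known for Pasteurellaceae, small Gram-negative rods that tolerate oxygen, and for streptococci. Stool carries what leaves the caecum and colon, a dense community of strict anaerobes. There the Lachnospiraceae and other Clostridia ferment fibre to short-chain fatty acids, and Bacteroidota such as Muribaculaceae, Bacteroides and Alistipes break down plant and mucus glycans.

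Oral swabs held 119454 to 428830 counts and stool libraries 245032 to 602305, with means of 304948 ± 96393 and 430105 ± 98838 (SD, n = 12 each; exact permutation test within arm, two-sided, p = 0.00446). Prokaryote features (sequence variants assigned to Bacteria or Archaea) took 99.9% of these counts, and every share below is a percent of a library's prokaryote counts. At the lowest depth a share of a single library carries a 95% Wilson interval of at most 0.284 percentage points to either side. This interval covers counting error only, because amplified reads that carry no molecular identifier can be copies of each other. The marker taxa of each site matched the labels by their shares, given below, while presence alone did not separate the sites. Muribacter, Rodentibacter and Streptococcus were present in every swab, and unclassified Lachnospiraceae, unclassified Muribaculaceae, Bacteroides, Alistipes and Odoribacter in every stool library. These taxa of stool were also in all 12 swabs, and Muribacter and Streptococcus in most stool libraries. The other 2 marker genera of the mouth were sparse, with Rothia in 7 swabs and Gemella in 2, and neither had a count in stool.

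Several libraries stood apart. The oral swab of PET library 2 had only 4.30% Streptococcus and held 24.2% in 11 genera best known from human stool, against 0.108% to 2.64% in the other 11 swabs. The oral swab of PET library 5 had 22.4% Rodentibacter. The stool of control library 1 was the richest in features and held 0.709% of the human-stool genera. The labels of 2 stool libraries, control 6 and PET 6, carry another run of label numbers than the other 22 libraries.

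The mouth was a community of few genera. Muribacter, a genus of Pasteurellaceae from the rodent mouth, ranged from 22.2% to 69.9% of the oral swab counts, with a median of 49.99%. In stool it ranged from 0% to 0.0459%, with a median of 0.0258%. No swab came near any stool library, and the mean shares were 50.7% ± 13.96 and 0.0217% ± 0.0150 (SD, n = 12). The difference was 11.20 ± 0.94 on the log2 scale (± standard error, adjusted p = 1.6e-11, quasi-likelihood test of edgeR, as for all adjusted p-values of taxa below unless another tool is named). Under a scaling by TMM factors, which takes most genera as equal between sites, the same difference was 15.40.

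Streptococcus, chain-forming cocci that ferment sugars to lactic acid, ranged from 4.30% to 70.0% of the oral swab counts with a median of 28.7%. In stool it ranged from 0% to 0.0321% with a median of 0.0213%, so the sites again lay far apart. The means were 30.3% ± 18.3 and 0.0198% ± 0.0104, a log2 difference of 10.56 ± 0.72 (adjusted p = 9.0e-14). Muribacter and Streptococcus together made 40.3% to 94.5% of a swab, with a median of 86.9%. Muribacter led in 11 swabs and Streptococcus in 1, that of control library 1. In PET library 2 the pair took 40.3%, the lowest value.

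Rodentibacter, the genus that holds the former Pasteurella pneumotropica of mouse airways, was found in all 12 swabs, from 0.126% to 22.4% with a median of 1.36%. It had counts in 5 of 12 stool libraries, at 0.00316% or less. Its log2 difference was 11.72 ± 1.31 (adjusted p = 4.6e-09). PET library 5 held 22.4% and the next highest swab 3.88%, so the mean of 3.15% ± 6.15 leans on that swab. Without it the mean was 1.40% ± 1.14 (n = 11) and the log2 difference 10.65 (adjusted p = 8.8e-09). The range of the swabs did not overlap that of stool even so.

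**Figure D1:**
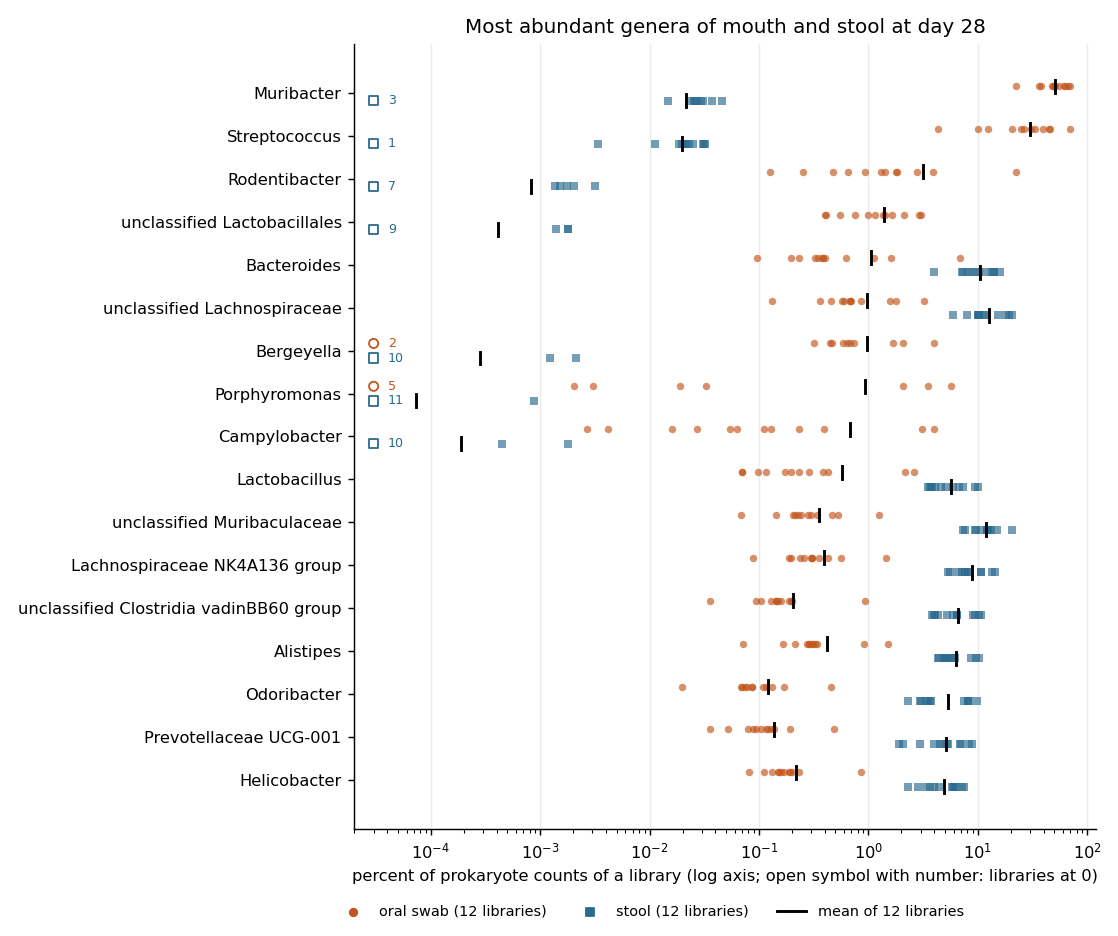
Share of the 10 most abundant genera of each site in every library (percent of prokaryote counts, log axis), with oral swabs as circles, stool libraries as squares, the mean of 12 libraries as a black bar and an open symbol with a number for libraries at 0. Muribacter lies between 22.2% and 69.9% in swabs and at 0.0459% or below in stool, while unclassified Muribaculaceae lies between 7.27% and 20.6% in stool and at 1.25% or below in swabs.

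Behind these stood fainter genera of the mouth. Unclassified Lactobacillales ranged from 0.401% to 3.02% of the swabs and had counts in 3 stool libraries, a log2 difference of 11.68 ± 1.19 (adjusted p = 5.9e-10). Bergeyella, a Flavobacteriia genus known from animal mouths and bites, was in 10 swabs at up to 3.95% and in 2 stool libraries at up to 0.00212% (log2 difference 11.62 ± 1.54, adjusted p = 1.6e-07). Porphyromonas, anaerobes of the gum line, was uneven: 5 swabs were at 0, 4 lay at 0.0326% or below, and 3 held 2.09%, 3.47% and 5.66%. Stool had 4 counts of it in 1 library (log2 difference 13.05 ± 2.18, adjusted p = 6.6e-06). Campylobacter, a curved rod of mucosal surfaces that needs little oxygen, was in all swabs from 0.00270% to 3.98% with a median of 0.0865%, and its 2 highest swabs were PET 2 and PET 5. Its log2 difference was 10.996 ± 1.66 (adjusted p = 1.3e-06) and 10.37 without PET library 2 and stool control library 1 (adjusted p = 4.3e-07).

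Some of these genera had no count in any stool library. A count of 0 over the 12 stool libraries allows a share of up to 5.81e-05%, and folds against it are lower bounds at that floor of 3 counts over the group. Streptobacillus, the genus of the rat-bite fever agent, was in 9 swabs at up to 0.698%, with a mean at least 2008-fold higher in the mouth, and at least 783-fold without PET library 2. Cutibacterium, a skin genus, was in all 12 swabs between 0.00581% and 0.154% and at least 619-fold higher. Rothia, a mouth genus of Micrococcaceae, was in 7 swabs and at least 252-fold higher. The highest swab of both was control 5, and without it the bounds were 348-fold for Cutibacterium and 50.2-fold for Rothia. In all, 35 of the genera that were higher in oral swabs had no count in stool. They met the minimum of 3 libraries through the swabs alone, which fixed their direction.

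Over all genera, 157 of 200 tested differed between the sites (78.5%): 95 were higher in oral swabs (47.5%) and 62 higher in stool (31%). The ranges of swabs and stool did not overlap for 36 genera (18%). A difference was therefore the usual case, and the counts of groups below are read against these shares. How the calls split depended on the scaling. TMM put 81.6% of the genera it called higher in swabs and 26 genera higher in stool, with the median genus moved by 3.21 on the log2 scale. The test of limma on centred log ratios gave 68 higher in swabs and 70 higher in stool, with the median moved by -1.40. In the 12 control libraries alone 32 were higher in swabs and 52 in stool. Of the 95 genera higher in swabs, 21 were in all 12 swabs and 40 in 5 or fewer, and 25 had most of their oral counts in PET library 2. Only 20 of the 95 had a mean of at least 0.1% in the mouth, against 41 of the 62 in stool.

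The group of rodent oral and airway genera had 16 of 19 listed members in these libraries and 12 tested. All 12 were higher in oral swabs. For 6 of them, Neisseria, Fusobacterium, Actinomyces, Moraxella, Aggregatibacter and Rothia, the direction was fixed by the filter, since they had no count in stool. The members in at least 3 stool libraries were 4: Muribacter, Streptococcus, Rodentibacter and Haemophilus. The summed share of the list ran from 40.9% to 95.5% of a swab and from 0% to 0.0780% of a stool library. Gemella, Capnocytophaga, Granulicatella and Leptotrichia were present in 1 or 2 swabs each and were not tested, since the fit asked for 3 libraries. Beside Muribacter, Streptococcus, Rodentibacter, Porphyromonas and Rothia the 12 hold genera at trace level. Veillonella, which feeds on the lactate of streptococci, was in 9 swabs with a mean of 0.0240% ± 0.0425, or 0.0124% without control library 5, and in 1 stool library (log2 difference 6.63 ± 1.79, adjusted p = 0.00186). Neisseria, Fusobacterium, Actinomyces, Moraxella and Aggregatibacter were in 3 or 4 swabs each. Haemophilus, in 4 swabs and 3 stool libraries, had the weakest call (log2 difference 3.86 ± 1.72, adjusted p = 0.0403). DESeq2 and the test on centred log ratios each called 8 of the 12, all higher in swabs, and DESeq2 gave no adjusted p for 2.

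Genera of skin, fur and bedding were higher in swabs for 8 of 8 tested, and 5 of these had no count in stool, so that the filter fixed their direction. Only 1 of the 8, Enterococcus, was in at least 3 stool libraries, and all other members met the filter through the swabs. DESeq2 and the test on centred log ratios each called 5 of the 8. The list had a summed share of 0.0312% to 0.716% of a swab and at most 0.00665% of stool. Corynebacterium, club-shaped rods of skin, was in all 12 swabs (0.0135% to 0.282%) and 2 stool libraries (log2 difference 7.21 ± 1.40, adjusted p = 5.8e-05). Staphylococcus was in 10 swabs at up to 0.454% and 1 stool library (log2 difference 8.56 ± 1.64, adjusted p = 5.0e-05). Jeotgalicoccus, Micrococcus, Kocuria and Brevibacterium were in 3 to 6 swabs and, like Cutibacterium, in no stool library. Without PET library 2 and stool control library 1, 5 of the 6 members still tested were higher in swabs. Enterococcus was the exception, with an adjusted p of 0.0540.

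Among enterobacteria, facultative rods that grow with or without oxygen, both tested members were higher in swabs. Escherichia-Shigella ranged from 0.00617% to 1.37% in swabs with a median of 0.0236%, and from 0% to 0.0296% in stool with a median of 0.00416% (log2 difference 4.55 ± 1.09, adjusted p = 0.000647). Izhakiella was in 9 swabs at up to 0.0327% and in 3 stool libraries at up to 0.00114% (log2 difference 5.24 ± 1.503, adjusted p = 0.00295). The ranges of both genera overlapped between the sites. DESeq2 called 1 of the 2 and gave no adjusted p for the other. In the control libraries alone 1 of the 2 passed, and Izhakiella did not (adjusted p = 0.0537).

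Genera that are common in extraction reagents were measured as a further background. Of 9 tested, 7 were higher in swabs and none lower, and 2 of the 9 had no count in stool, so that the filter fixed their direction. DESeq2 called 3 of the 9 and gave no adjusted p for 2, and the test on centred log ratios called 5, all higher in swabs. Only 3 of the 9, Burkholderia-Caballeronia-Paraburkholderia, Leifsonia and Sphingomonas, were in at least 3 stool libraries, and these 3 were higher in swabs. Their sum ran from 0.118% to 2.70% of a swab with a median of 0.604%, and from 0% to 1.31% of stool with a median of 0.00791%. Burkholderia-Caballeronia-Paraburkholderia led with 0.523% ± 0.504 in swabs and 0.0870% ± 0.281 in stool (log2 difference 4.13 ± 1.41, adjusted p = 0.0101). The stool value came mostly from control library 1 at 0.980%, and without that library and oral PET library 2 the log2 difference was 6.48 (adjusted p = 9.8e-08). Leifsonia was at 0.0202% to 0.346% in swabs and in 4 stool libraries (log2 difference 5.40 ± 1.72, adjusted p = 0.00606). The call of Sphingomonas was borderline. It was lost without the exposure arm in the fit (adjusted p = 0.115) and without stool control 6 and PET 6 (adjusted p = 0.0893). Many single libraries left out in turn also cost the call, such as oral PET 5 (adjusted p = 0.0660). Without oral PET library 2 and stool control library 1 it was kept (log2 difference 5.72, adjusted p = 0.000116). In the control libraries alone, none of the 5 members tested passed. The part of reagent DNA in the fainter genera of the swabs was not tested.

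At the level of phyla, 14 of 17 differed (82.4%), with 8 higher in swabs (47.1%) and 6 higher in stool (35.3%). Of the 8, Acidobacteriota, Deinococcota, Elusimicrobiota, Fusobacteriota, Myxococcota and Synergistota had no count in stool, so that the filter fixed their direction. Proteobacteria, to which Muribacter belongs, took 54.8% ± 13.96 of swabs and 0.551% ± 0.639 of stool (log2 difference 6.81 ± 0.51, adjusted p = 2.0e-13). Bacteroidota took 4.93% ± 3.56 and 44.5% ± 4.27 (log2 difference -3.18 ± 0.35, adjusted p = 2.5e-09). Firmicutes, with Streptococcus in the mouth and Clostridia in stool, took 38.5% ± 15.2 and 47.7% ± 4.17 and did not pass (log2 difference -0.31 ± 0.21, adjusted p = 0.164). Fusobacteriota, with Streptobacillus and Fusobacterium, were at up to 0.714% of swabs and had no count in stool.

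The genera of the mouth were made of few sequence features, and these differed between mice. A feature is a distinct amplicon sequence of the count table, and only its taxonomic label and counts were used here. For Muribacter 5 features made 98.5% or more of the genus in every swab, all assigned to Muribacter muris. Feature 2 led the genus in 5 swabs, feature 3 in 3, and features 1 and 4 in 2 each. Feature 1 was at 52.6% of all counts in control library 4, 30.95% in control 5 and 60.4% in PET 6. In the other 9 swabs it lay between 0% and 8.28%. Feature 4 made 32.4% of control library 3 and 38.4% of control 5, was at 0.0164% in PET 4, and was at 0 in the other 9 swabs. Features 3 and 5 went together: in the 9 swabs with over 1% of feature 3 and over 0.1% of feature 5 the ratio of the former to the latter lay between 2.08 and 2.20 in 8 and was 7.03 in PET library 2.

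Streptococcus was led by 1 feature, assigned to Streptococcus danieliae, a species described from the mouse gut. This feature 1 ranged from 1.15% to 58.1% of swab counts and made 26.7% to 84.1% of the genus, with a median of 76.7%. Feature 2, of the same species label, followed it in 11 of 12 swabs at a ratio of 2.51 to 5.69 (median 5.34) and was at 0 in PET library 2. Feature 3, without a species label, was in all 12 swabs from 0.231% to 5.68%. Rodentibacter was split between feature 1, labelled Rodentibacter pneumotropicus, in 9 swabs at up to 18.2%, and feature 2, labelled Rodentibacter heylii, in 10 swabs at up to 4.15%. Both were highest in PET library 5.

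**Figure D2:**
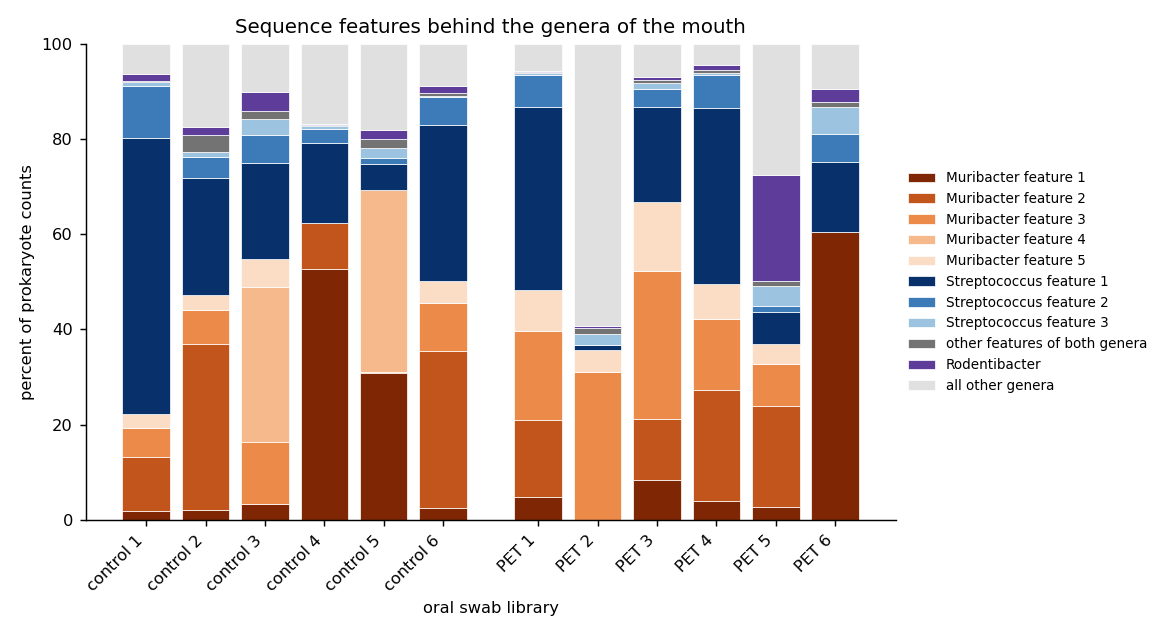
Stacked shares of the leading features of Muribacter and Streptococcus, of Rodentibacter and of all other genera in the 12 oral swabs (percent of prokaryote counts, control libraries at left and PET libraries at right). Different Muribacter features lead in different swabs, with feature 1 at 60.4% in PET library 6 and feature 4 at 38.4% in control library 5, and all other genera take the largest part of PET library 2.

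Stool was spread over many genera. Unclassified Lachnospiraceae, fermenting Clostridia, ranged from 5.96% to 20.4% of stool with a median of 10.8%, and from 0.131% to 3.24% of swabs with a median of 0.679%. The log2 difference was -3.71 ± 0.44 (adjusted p = 1.6e-08). Unclassified Muribaculaceae, the glycan-degrading family that dominates Bacteroidota of the mouse gut, ranged from 7.27% to 20.6% of stool and from 0.0678% to 1.25% of swabs (log2 difference -5.07 ± 0.44, adjusted p = 3.0e-11). No swab reached the lowest stool library for either taxon. Both kept their direction under TMM, where the first no longer passed (log2 difference -0.24).

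Bacteroides, which digests many polysaccharides, took 10.4% ± 3.57 of stool (3.97% to 16.0%) and 1.05% ± 1.90 of swabs. Its swabs overlapped stool through PET library 2 at 6.93%, while the other 11 ranged from 0.0962% to 1.596%. The log2 difference was -3.53 ± 0.56 (adjusted p = 2.8e-06) and -4.35 without that swab and stool control library 1 (adjusted p = 2.0e-09). Under TMM it was -0.47 and did not pass (adjusted p = 0.196). Lachnospiraceae NK4A136 group took 8.79% ± 2.87 of stool and 0.390% ± 0.359 of swabs (log2 difference -4.50 ± 0.44, adjusted p = 3.1e-10). Unclassified Clostridia vadinBB60 group, an uncultured order, took 6.63% ± 2.58 and 0.206% ± 0.234 (log2 difference -5.04 ± 0.50, adjusted p = 4.0e-10). For the NK4A136 group the highest swab was 1.46% and the lowest stool library 5.29%.

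Alistipes, bile-tolerant Bacteroidota, took 6.28% ± 2.06 of stool and 0.418% ± 0.403 of swabs, with no overlap (log2 difference -3.98 ± 0.46, adjusted p = 7.1e-09). Odoribacter, a producer of short-chain fatty acids, took 5.37% ± 2.72 and 0.122% ± 0.110 (log2 difference -5.47 ± 0.52, adjusted p = 2.0e-10). Prevotellaceae UCG-001 took 5.17% ± 2.29 and 0.136% ± 0.118 (log2 difference -5.24 ± 0.50, adjusted p = 2.0e-10). Helicobacter, spiral bacteria of the gut mucus, took 4.94% ± 1.72 and 0.219% ± 0.206 (log2 difference -4.53 ± 0.47, adjusted p = 6.6e-10). For Alistipes under TMM the log2 difference was -0.52 and did not pass.

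Lactobacillus, lactic acid bacteria of stomach and gut, ranged from 3.49% to 10.1% of stool with a median of 4.898%. Swabs ranged from 0.0703% to 2.63% with a median of 0.215%, all below the lowest stool library. The highest swabs were control 2 at 2.63% and PET 5 at 2.17%, and the other 10 were at 0.428% or below. The log2 difference was -3.30 ± 0.60 (adjusted p = 2.4e-05), and its sign turned under TMM (log2 difference 0.22). The 2 other tested members of the lactic acid bacteria and bifidobacteria went the other way. Bifidobacterium had a median of 0.0358% in swabs and 0% in stool (log2 difference 7.06 ± 1.88, adjusted p = 0.00174). Its mean of 0.289% rests on PET library 2, where it was at 2.81%. Without that swab the mean was 0.0595% and the log2 difference 5.24 (adjusted p = 0.00159), and in the control libraries alone the genus did not pass (adjusted p = 0.0883).

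The lowest genera of the mouth relative to stool were fainter gut anaerobes. Unclassified Desulfovibrionaceae, sulfate reducers, ranged from 0.111% to 1.20% of stool and from 0% to 0.0210% of swabs, with no overlap (log2 difference -7.19 ± 0.93, adjusted p = 9.2e-08). Anaeroplasma, wall-less anaerobes, took 0.706% ± 0.541 of stool and 0.00920% ± 0.0103 of swabs (log2 difference -6.26 ± 0.92, adjusted p = 9.0e-07). Erysipelatoclostridium was in 9 stool libraries and 1 swab (log2 difference -8.32 ± 1.80, adjusted p = 0.000211) and Peptococcus in 10 stool libraries and 1 swab (log2 difference -8.09 ± 1.53, adjusted p = 4.6e-05). Acetatifactor and Marvinbryantia, both Lachnospiraceae, were in all 12 stool libraries and 3 swabs each, with log2 differences of -6.47 and -6.60. Mucispirillum, a mucus dweller, was in all 24 libraries, at 0.373% ± 0.264 of stool and 0.0159% ± 0.0154 of swabs (log2 difference -4.55 ± 0.73, adjusted p = 3.8e-06). Under TMM its difference was -0.76 and did not pass (adjusted p = 0.191).

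By function, 8 of the 11 members tested of the list of glycan-degrading Bacteroidota were higher in stool, 1 was higher in swabs and 2 did not pass, with a median log2 difference of -4.13. Their sum was 31.2% ± 3.86 of stool and 2.50% ± 2.85 of swabs. The 8 include Parasutterella, which the list carries although it is a Proteobacterium (0.344% ± 0.303 of stool, log2 difference -5.86 ± 1.34, adjusted p = 0.000382). The exception was Prevotella, anaerobes shared by mouth and gut, in all 12 swabs from 0.0108% to 2.87% and in 2 stool libraries (log2 difference 7.63 ± 1.59, adjusted p = 0.000141). Under TMM 5 members were higher in stool and 1 higher in swabs, and no call turned its sign.

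Butyrate producers, whose acid feeds the cells lining the colon, numbered 10 tested, of which 4 were higher in stool, 5 higher in swabs and 1 did not pass. These shares lie near those over all genera. In the control libraries alone 4 of 9 were higher in stool and 2 higher in swabs. Higher in stool were Odoribacter, Butyricicoccus, Roseburia and Intestinimonas. Butyricicoccus took 0.835% ± 0.349 of stool and 0.112% ± 0.153 of swabs, or 0.0734% without PET library 2 (log2 difference -3.07 ± 0.61, adjusted p = 8.2e-05), and its sign turned under TMM (log2 difference 0.15). Roseburia took 0.632% ± 0.654 and 0.104% ± 0.271 (log2 difference -2.86 ± 1.15, adjusted p = 0.0255), and 0.0261% of swabs without PET library 2 (log2 difference -5.09, adjusted p = 4.1e-05). Its call was lost under TMM (log2 difference -0.33, adjusted p = 0.736), in the PET libraries alone (-1.47, adjusted p = 0.387) and with counts under 0.01% set to 0 (adjusted p = 0.0502). Higher in swabs were Faecalibacterium, Agathobacter, Subdoligranulum, Coprococcus and Butyricimonas. Of the mucus-associated genera Campylobacter was higher in swabs, Helicobacter, Mucispirillum and Candidatus Arthromitus higher in stool, and Akkermansia did not pass. The call of Candidatus Arthromitus (log2 difference -3.84, adjusted p = 0.0206) was lost under TMM, on centred log ratios and in either arm alone. Of the sulfate and sulfite reducers Desulfovibrio was higher in stool, with a sign that turned under TMM (log2 difference 0.64), and Bilophila did not pass.

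At the level of families 83 of 99 differed (83.8%), 55 higher in swabs (55.6%) and 28 higher in stool (28.3%). All 5 genera of Pasteurellaceae that were tested were higher in swabs, with a summed share of 53.8% ± 13.7 of swabs and 0.0227% ± 0.0149 of stool. Aggregatibacter and unclassified Pasteurellaceae, 2 of the 5, had no count in stool. DESeq2 called 2 of the 5, with no adjusted p for 2 more, the test on centred log ratios 3 of 5, and the control libraries alone 2 of 3. All 4 tested genera of Micrococcaceae and both of Staphylococcaceae were higher in swabs, with no stool count for the 4 and for Jeotgalicoccus, and both of Muribaculaceae higher in stool. Staphylococcus too was in fewer than 3 stool libraries. Lachnospiraceae took 25.5% ± 4.75 of stool and 2.51% ± 2.79 of swabs, yet of 35 genera tested 14 were higher in stool, 11 higher in swabs and 10 did not pass. None of the 11 was in 3 or more stool libraries. Over all families of gut anaerobes, 34 of 77 genera were higher in stool, 21 higher in swabs and 22 did not pass, with a median log2 difference of -1.30. Of the 21, 3 were in at least 3 stool libraries. The summed share of these families was 68.8% to 81.1% of every stool library. In swabs it ran from 0.776% to 33.5%, and the highest were PET 2 and PET 5. In the control libraries alone 31 of 69 were higher in stool and 4 higher in swabs. Under TMM, 15 of 77 were higher in stool and 30 higher in swabs. There the calls of Desulfovibrio, Lachnoclostridium and unclassified Ruminococcaceae were lost, with estimates of the opposite sign that did not pass.

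Several gut-type genera that were higher in swabs are best known from human stool. A list of these was drawn up after their values were seen, and its counts are a description. Of its 11 genera 9 were higher in swabs and 2, Ruminococcus and Holdemanella, did not pass. Faecalibacterium, a butyrate producer of the human colon, ranged from 0.0201% to 4.28% of swabs with a median of 0.118%, and from 0% to 0.0893% of stool with a median of 0.00416% (log2 difference 6.19 ± 1.38, adjusted p = 0.00029). PET library 2 held 70.3% of all its oral counts and stool control library 1 had its highest stool value. Dialister stood at 3.504% in PET library 2 and had a median of 0.00766% in the other 11 swabs. Megasphaera was at 4.80% in PET library 2, and 94.9% of its oral counts were there.

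Without PET library 2 and stool control library 1, 8 of the 11 were higher in swabs. Faecalibacterium kept a log2 difference of 5.75 (adjusted p = 2.0e-05), Agathobacter 10.57 (adjusted p = 4.5e-07) and Dialister 7.77 (adjusted p = 1.7e-06), while Megasphaera did not pass (log2 difference 3.87, adjusted p = 0.458). Their summed share in the other 11 swabs had a median of 0.378%, against 0.0108% over the 12 stool libraries. In the control libraries alone 6 of the 11 were higher in swabs. Over all genera the fit without both libraries called 151 of 180, with 83 higher in swabs and 68 higher in stool. The source of these genera in the swabs was not tested.

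**Figure D3:**
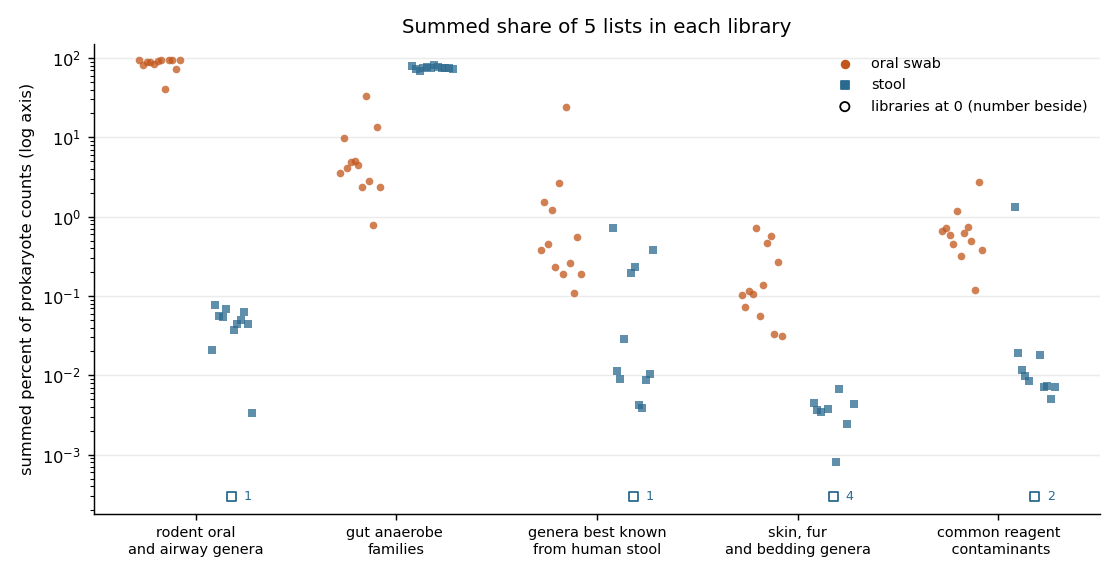
Summed share of 5 lists in each of 12 oral swabs (circles) and 12 stool libraries (squares), in percent of prokaryote counts on a log axis, with open symbols and a number for libraries at 0. Rodent oral genera make 40.9% to 95.5% of swabs and gut anaerobe families 68.8% to 81.1% of stool, and a single swab, PET library 2, holds 24.2% of genera best known from human stool.

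Mouth and stool shared many features at very unequal levels. With a feature counted as present where at least 3 of 12 libraries held it, the mouth had 462 features, stool had 738, and 236 were at both: 51.1% of those of the mouth and 31.98% of those of stool. With 1 library as the rule the numbers were 1897, 2018 and 636, and 22 features were in all 24 libraries. Of the 236, 211 had the higher mean in stool and 25 in the mouth. Tested singly, 162 were higher in stool, 15 higher in swabs and 59 did not pass, while over all 1009 features tested 81% differed, 18.8% higher in swabs and 62.1% higher in stool, and the ranges did not overlap for 7.23%. Under TMM the features called were 256 higher in swabs and 310 higher in stool, against 190 and 627.

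The shared features that were higher in stool were the gut taxa named above. Unclassified Muribaculaceae gave 25 of the 162, unclassified Lachnospiraceae 16, unclassified Clostridia vadinBB60 group 15 and Lachnospiraceae NK4A136 group 13. Over the 211 with the higher mean in stool, the mouth mean was 0.225% to 76.3% of the stool mean, with a median of 5.25%. Of 183 features with a stool mean of at least 0.1%, 156 had a count in some swab and 44 in all 12. Features at least 10 times higher in stool, picked by the means of these same libraries, made 0.586% to 10.9% of a swab. The median was 2.20% and the highest value was in PET library 5.

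**Figure D4:**
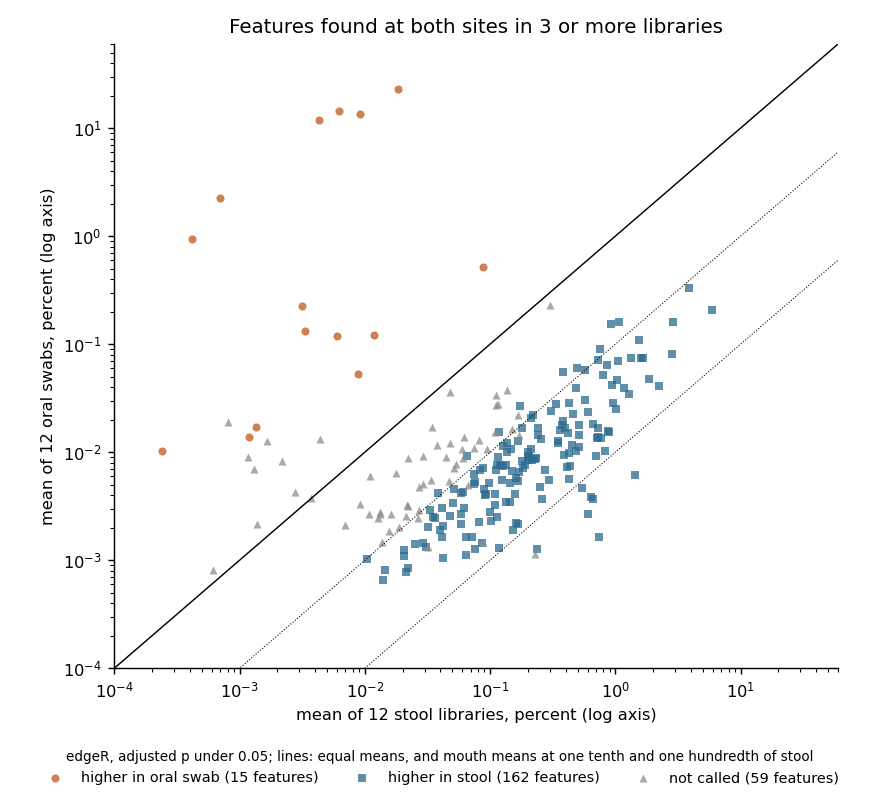
Mean share of the 236 features found in at least 3 libraries of both sites, in stool (x axis) and in oral swabs (y axis), in percent on log axes, marked by the call of edgeR. The solid line marks equal means and the dotted lines mouth means that are 10 and 100 times lower, and 162 features lie below as higher in stool while 15 lie above as higher in oral swabs.

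Leading gut features were followed singly. Bacteroides feature 1, labelled Bacteroides acidifaciens, a mouse gut species, was in every library, from 2.33% to 9.83% of stool and from 0.0453% to 0.741% of swabs (log2 difference -4.85 ± 0.67, adjusted p = 2.8e-06). Unclassified Lachnospiraceae feature 1 was in every library too, at 3.90% ± 2.43 of stool and 0.330% ± 0.305 of swabs (log2 difference -3.55 ± 0.75, adjusted p = 0.000338). Helicobacter feature 3, labelled Helicobacter ganmani, was in all 12 swabs at 0.0190% to 0.482% but in 5 stool libraries, where the highest was 5.66%. These 5 were PET 1, PET 2, PET 3, PET 6 and control 6, and the feature was at 0 in the stool of controls 1 to 5, PET 4 and PET 5. Helicobacter feature 2, labelled Helicobacter typhlonius, was in 9 swabs and 9 stool libraries at 0.00609% ± 0.00449 and 1.42% ± 1.41. Lactobacillus feature 3, labelled Lactobacillus murinus, a lactobacillus of the rodent mouth and gut, had medians of 0.0196% in swabs and 0.213% in stool. Its means over all libraries were 0.231% ± 0.426 of swabs and 0.303% ± 0.236 of stool (log2 difference -0.39 ± 1.02, adjusted p = 0.723). Without control library 2, at 1.28%, the swab mean was 0.136%, and with PET library 5 also left out it was 0.0555% (n = 10). Feature 2, labelled Lactobacillus reuteri, was lower in swabs (log2 difference -3.96 ± 0.81, adjusted p = 0.000277). With a standard error of 1.02 on the log2 scale, a difference of feature 3 in either direction could not be told from none.

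Genera at both sites did not always have the same features. In Helicobacter 99.8% of the oral counts lay in features present in at least 3 stool libraries, in Prevotellaceae UCG-001 98.1%, and in unclassified Muribaculaceae 98.02%. In Bacteroides it was 24.2%, in Ruminococcus 12.4% and in Roseburia 5.66%, but PET library 2 held 63.1%, 74.3% and 80.8% of their oral counts. Without that swab the shares were 59.6%, 41.95% and 28.4%, and single swabs ranged from 3.57% to 88.2% for Bacteroides. For Subdoligranulum, Collinsella, Dialister and Bifidobacterium no feature was in 3 stool libraries. Of the 43 genera in at least 9 of 12 libraries of each site 35 were higher in stool. Higher in swabs were Muribacter, Streptococcus, Escherichia-Shigella and Burkholderia-Caballeronia-Paraburkholderia, and 4 did not pass: Blautia, Monoglobus, NK4A214 group and Ruminococcus. The signs of Blautia, Monoglobus and Ruminococcus turned under TMM, and that of the NK4A214 group, 0.89 on the log2 scale, turned to -1.37 without PET library 2 and stool control library 1.

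In the other direction, the genera of the mouth were at trace level in most stool libraries. Muribacter had 36 to 216 counts in 9 of 12 stool libraries, 0.0147% (95% Wilson interval 0.0106% to 0.0203%) to 0.0459% (0.0402% to 0.0524%). It had none in control 1, control 6 and PET 6, where 0 counts allow at most 0.000498%, 0.000925% and 0.000920%. Control 6 and PET 6 are the 2 libraries of the other run of label numbers. The 12 stool libraries of week 1, measured the same way, had no count of Muribacter (at most 5.52e-05%) and 225 counts of Streptococcus.

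Streptococcus was in 11 of 12 stool libraries, with 11 to 151 counts, and at 0 in control 6. The same 9 stool libraries that had Muribacter held 56 to 151 counts of Streptococcus feature 1. Without control 6 and PET 6 the log2 difference of Streptococcus was 10.32, and that of Muribacter 10.93. Rodentibacter had 51 counts in 5 stool libraries. Whether the label run or the library preparation has a part in these trace counts was not tested.

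Not all leading features of the mouth were found in stool. Muribacter features 1, 2 and 3 had 344, 507 and 202 counts in stool, each between 36 and 93 where it was found. Features 4 and 5, at means of 5.90% ± 13.8 and 4.66% ± 4.21 of swabs, had no count in any stool library, and the mean of feature 4 was 2.95% without control library 5. Streptococcus feature 1 had 966 stool counts and feature 2 none, although feature 2 had 162859 counts in swabs against 776699 for feature 1. Lower counts are listed for other features, such as 3 and 7 counts of Muribacter feature 6 in stool control library 3 and PET library 4. The zeros do not show absence.

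**Figure D5:**
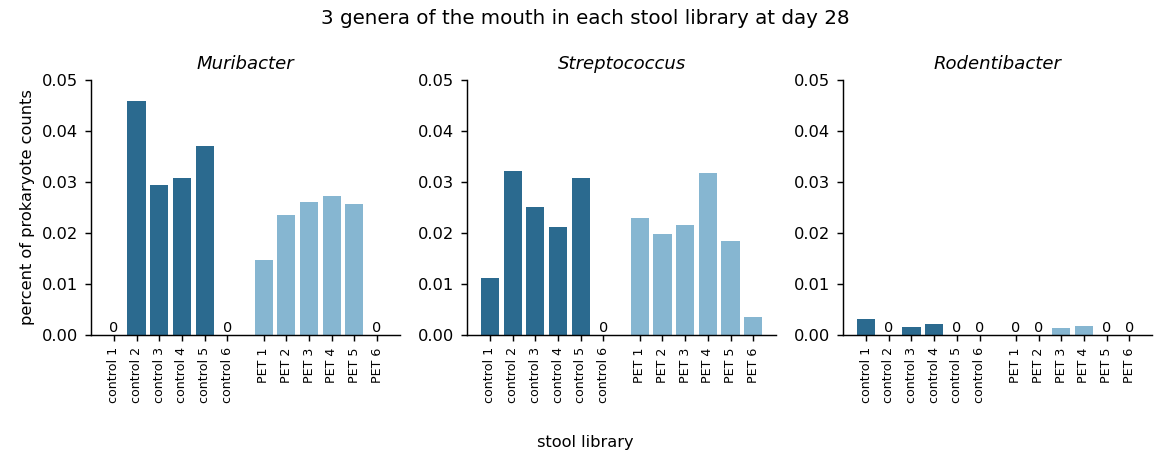
Share of Muribacter, Streptococcus and Rodentibacter in each of the 12 stool libraries of day 28 (percent of prokaryote counts, bars from 0, control libraries dark and PET libraries light, 0 written where there was no count). Muribacter lies between 0.0147% and 0.0459% in 9 libraries and at 0 in control 1, control 6 and PET 6.

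By counts, 76.7% ± 7.83 of a stool library lay in features that at least 3 swabs held, from 63.3% in control 1 (95% Wilson interval 63.1% to 63.4%) to 92.5% in PET 6 (92.4% to 92.6%). Of a swab, 71.5% ± 17.8 lay in features that at least 3 stool libraries held. Low values were those of control 3 at 43.4%, control 5 at 44.1% and PET 2 at 39.9%, and the other 9 ranged from 75.9% to 86.6%. Control 3 and control 5 are the swabs led by Muribacter feature 4. Features at least 10 times higher in the mouth made 92.1% ± 6.56 of swabs and 0.114% ± 0.203 of stool, with 0.752% in stool control library 1 and none in control 6. The shares of 76.7% and 71.5% show presence only, since Muribacter features 1 to 3 count as features of stool at 36 to 93 counts a library. The features at least 10 times higher in the mouth were picked by the means of these same libraries, which fixed the direction of that contrast.

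The Shannon index, which rises with the number and evenness of features, ranged from 1.62 to 3.78 in swabs and from 4.58 to 4.898 in stool, with no overlap. The means were 2.32 ± 0.639 and 4.74 ± 0.106 (exact permutation test within arm, two-sided, p = 2.3e-06, the smallest that its 853776 arrangements can give; adjusted p = 3.5e-06 over 6 tests of this kind). The leading genus took 54.7% ± 11.7 of a swab and 15.8% ± 3.14 of a stool library (exact permutation test, adjusted p = 3.5e-06). The 2 swabs with the highest Shannon index were PET 2 at 3.78 and PET 5 at 3.29.

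Richness, the expected number of features at 119446 counts, was 379.7 ± 135.97 in swabs and 542.1 ± 105.8 in stool, and the ranges overlapped (exact permutation test, p = 0.00324, adjusted p = 0.00388). Counted in genera the order was the reverse: 132.2 ± 35.6 genera in swabs and 87.4 ± 17.96 in stool, a difference of 44.8 (exact permutation test, p = 0.000433). The ranges of genera overlapped too, at 77.1 to 203.5 in swabs and 77.2 to 141.5 in stool. On average swabs thus held more genera and fewer features in all. Within a genus the number of features with a count went both ways. Muribacter and Streptococcus had more features in swabs, and unclassified Lachnospiraceae and unclassified Muribaculaceae more in stool. Whether the number of features per genus differed between the sites was not tested.

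The whole communities were far apart. The share of the squared Bray-Curtis distances that lay between the sites was R2 = 0.488 (24 libraries, permutation test with 100000 permutations within arm, p = 2.0e-05). The share depended on the distance: R2 was 0.250 with Jaccard distances on presence, 0.303 with Aitchison distances and 0.821 with genus shares (permutation test, p = 2.0e-05 each). In the control libraries alone R2 was 0.528 and in the PET libraries 0.513 (exact permutation test, p = 0.00216 each). Between a swab and a stool library the Bray-Curtis distance had a median of 0.974. Swabs among themselves had a median of 0.623, ranging from 0.108 to 0.925, and stool libraries of 0.552, ranging from 0.431 to 0.688.

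Whether the contrast of mouth and stool differed with exposure was tested genus by genus. No genus of 200 passed (0%, edgeR, 39 at an unadjusted p under 0.05, lowest adjusted p = 0.124). The test of limma on centred log ratios called 0 (11 at an unadjusted p under 0.05) and DESeq2 called 6: Coprococcus, Eubacterium ruminantium group, Megasphaera, Porphyromonas, Ruminococcus torques group and unclassified F082. Each of these 6 was at 0 in all libraries of at least 1 of the 4 groups. Muribacter made 51.3% ± 16.4 of control swabs and 50.1% ± 12.5 of PET swabs, and Streptococcus 34.02% ± 20.5 and 26.5% ± 16.7 (SD, n = 6 each).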

How the data were processed

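The counts of 16S rRNA gene reads per feature and library were used as deposited by the authors, in a table exported from a biom file per the file headers. The authors also deposited a taxonomy table, whose confidence is a fraction per feature. Cutadapt, Bowtie2 and the mouse genome GRCm39 are named without role in the submitters' processing notes, while no denoiser, classifier or database is named in the sources used here.

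Groups were taken from the labels. Features assigned to Bacteria or Archaea were kept and summed by genus. Differences were tested on the counts with edgeR 4.0.16 (R 4.3.3), quasi-likelihood F test, with the exposure arm as a block and library totals as the scale, for taxa with at least 10 counts in all and 3 libraries. P-values were adjusted by Benjamini-Hochberg over all taxa tested, and 0.05 was the threshold. DESeq2 1.42.0, limma 3.58.1 on centred log ratios, TMM and a permutation per genus (pseudocount 0.5) were alternatives. Single measures were tested by exact permutation within arm. A count of 0 was given a limit of 3 counts, and Wilson intervals are at 95%.

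Named genera were the 10 most abundant of each site, up to 10 of the highest and lowest log2 differences among those called with a mean of at least 0.01% at the higher site, called members of the lists, genera in at least 9 of 12 libraries of both sites, and up to 6 called for the interaction in each direction. Named features were the 5 most abundant of each site and the 10 found at both with the highest lower mean. List members that did not pass, further features of the named genera and the 6 genera called by DESeq2 for the interaction were named after their values were seen. The members and lists were chosen with earlier results of these data known. The list of human-stool genera, and the fit without 2 libraries rich in them, were chosen after seeing the data, as were the means and shares without single libraries.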

Additional observations from a re-analysis of the deposited data

Results flagged for a closer look

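Of 56 groups of 6 libraries that were examined, 12 held a library whose gap to its nearest neighbour was large for the range of the group. In normally distributed values chance alone gives such a gap in about 1 of 20 groups. Shares that are skewed or hold zeros, such as those of Porphyromonas, need not follow that rate, so the 12 of 56 cannot be read against it.

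In oral swabs of control mice, library 2 stood above the others for unclassified Lachnospiraceae (1.77%) and for Lactobacillus (2.63%), and library 4 for Porphyromonas (5.66%). In swabs of exposed mice, PET library 2 was high for Bacteroides (6.93%) and low for the share of counts in features of stool (39.9%). PET library 5 was high for Rodentibacter (22.4%) and Lactobacillus (2.17%), and PET library 6 for Porphyromonas (3.47%).

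In stool of control mice, library 1 stood apart by its richness (850.0 features) and by its low share of counts in features of the mouth (63.3%). Library 5 was high for Lachnospiraceae NK4A136 group (13.3%) and library 3 for Alistipes (10.2%). No stool library of exposed mice was among the 12.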

How the results depend on the processing

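No paired analysis was possible because no label ties a swab to the stool of the same mouse, and the library numbers only name libraries. Each of the 24 libraries left out in turn gave 143 to 166 genera called. Of the genera tested 40.4% to 53.1% were then higher in swabs and 30.2% to 35.6% higher in stool. The Shannon difference was -2.55 to -2.36, the richness difference -188 to -134, and the contrast by exposure gave 0 genera each time. The lowest number of genera called and the lowest share higher in swabs came without oral PET library 2, the highest of both without stool control library 1.

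Genera called numbered 314 with no filter, 84 in the control libraries alone and 100 with counts under 0.01% set to 0. With library totals 47.5% of the genera tested were higher in swabs and 31% in stool. The share higher in swabs was 62.8%, 19.5% and 33.6% in turn, and 37.9% where 6 libraries had to hold a genus. The share higher in stool was 13% under TMM. Features called numbered 531 by DESeq2, 523 where 6 libraries had to hold a feature, 374 in control and 472 in PET libraries alone. Features higher in swabs made 15.2%, 7.46% and 15.6% of those tested in the last 3 settings. Features higher in stool made 30.7% under TMM, 36.6% by DESeq2, 47.2% in control and 55.8% in PET libraries. DESeq2 called 6 genera for the contrast by exposure. The richness difference turned to 44.8 at genus level. The share of stool counts in features of the mouth was 86.6%, 67.3% and 63.2% where a feature had to be in 1 library, in 6, or in 3 at 0.01% or more. Of the features of the mouth 33.5%, 56.6% and 48.9% were then also in stool.

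Signs turned under TMM for Lactobacillus (0.22), Blautia (2.02), Butyricicoccus (0.15), Desulfovibrio (0.64), Lachnoclostridium (0.38), Monoglobus (1.67), unclassified Ruminococcaceae (0.48) and Ruminococcus (3.03). Ruminococcus, at -0.09 by edgeR, also turned with TMMwsp (0.96), DESeq2 (0.094), centred log ratios (2.12), permutation (2.73), no arm term (0.27), PET libraries alone (1.09) and without the 2 stool libraries of the other label run (0.46). NK4A214 group, at 0.89, turned on centred log ratios (-2.20), by permutation (-1.59), in control libraries alone (-0.21) and without the 2 libraries rich in human-stool genera (-1.37). With single libraries left out, it ranged from -1.46 to 1.10 and Ruminococcus from -1.17 to 0.67. Of 2241 pairs of a named genus and a left-out library, 43 lost a call with the sign kept, among them pairs of Sphingomonas, Haemophilus and Bacillus. Among the named genera 19 calls were lost under TMM with the sign kept, 16 in control libraries alone, 12 on centred log ratios and 9 in PET libraries alone. Of the 94 named genera, 45 kept direction and call under every alternative that gave them an adjusted p. Alternatives in which a genus was not tested or had no adjusted p were left out of this count. The cause of these changes was not tested.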
